A study of Homo sapiens with 36 samples.

Results

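The 5 human genes that encode isocitrate dehydrogenases, IDH1, IDH2, IDH3A, IDH3B and IDH3G, were followed through RNA-seq of A2780, a cell line from a human ovarian cancer. They are 5 of the 57820 genes in the count table, found by symbol, and all 5 passed the filter on low counts in every comparison. The family was selected on its measured response: IDH1 and IDH2 fell most among metabolic genes when sensitive cells in complete medium received carboplatin. The contrast that chose it, wt carbo against wt, is therefore described here without a test, as are the other comparisons that reuse its 6 libraries.

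There were 12 conditions of 3 libraries, 36 in all. Parental A2780 cells (wt) are sensitive to platinum, their isogenic partner (cis) became resistant under long cisplatin exposure, and a further population (cis SSP) was recovered from cis cultures starved of serine and glycine, after it had turned serine synthesis on again. All were grown with both amino acids (complete) or lacking them (-SG), and either untreated or with carboplatin (carbo), a platinum drug that crosslinks DNA. The labels write the carboplatin dose as 6 M, and its unit is not certain. The lines share 1 origin, and the study describes the libraries of a condition as technical replicates, so p-values measure the spread between libraries and not between independent cultures.

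Isocitrate dehydrogenases convert isocitrate to 2-oxoglutarate with release of carbon dioxide. IDH1, in the cytosol and peroxisomes, and IDH2, in mitochondria, use NADP+ and yield NADPH, which reduces glutathione and drives lipid synthesis. They can also run in reverse, making isocitrate from 2-oxoglutarate for lipid synthesis. The NAD+-dependent enzyme of the tricarboxylic acid (TCA) cycle is built from a catalytic alpha subunit (IDH3A), a beta subunit (IDH3B) and a regulatory gamma subunit (IDH3G). Its step in mitochondria yields NADH for the respiratory chain.

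Counts on genes summed to between 13074937 and 20441582 per library, which sets the counting error. Expression is given as CPM, a gene's counts relative to library totals scaled by TMM over the 36 libraries. Log2 fold changes and their standard errors (SE) come from edgeR's quasi-likelihood fit of the libraries compared, scaled among themselves, and a gene was called where the Benjamini-Hochberg adjusted p-value over all genes tested was under 0.05. CDKN1A, a p53 target, rose with carboplatin in all 5 tested comparisons, with log2 fold changes of 1.07 to 3.77, and PHGDH, the first enzyme of serine synthesis, was higher in cis SSP than in cis cells (log2 fold change 1.06, edgeR adjusted p = 0.00462). Of 8 markers of ovarian carcinoma, 2 (KRT8 and KRT18) had a median of at least 1 CPM, and PAX8, MUC16 and WT1 were below it, while the 3 mesenchymal markers passed it and none of the 3 leukocyte markers did. In all, 3 libraries stood apart from the others of their condition: library 25 of cis SSP, library 32 of cis SSP -SG and library 11 of wt -SG carbo. Their root mean square deviations on the log2 scale, over 11616 genes, were 0.625, 0.645 and 0.259, against 0.095 to 0.174 in the 9 conditions without such a library, and the deviations fell with transcript length (Spearman rho across genes of -0.72, -0.71 and -0.68). In libraries 23 and 24 of cis -SG carbo, up to 17.9% of counts lay on no annotated feature, against at most 9.31% elsewhere. Where leaving these libraries out changed the call of a member, its value without them is given.

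IDH1 (ENSG00000138413) lies on chromosome 2 from 209100953 to 209130798 on the minus strand of GRCh37, and its canonical transcript has 10 exons and 2318 bases. On chromosome 15, IDH2 (ENSG00000182054) runs from 90626277 to 90645709 on the minus strand, with 11 exons, and IDH3A (ENSG00000166411) from 78423840 to 78464287 on the plus strand, with 11 exons. IDH3B (ENSG00000101365) is on chromosome 20 from 2639041 to 2644865, minus strand, with 12 exons, and IDH3G (ENSG00000067829) on chromosome X from 153051221 to 153059967, minus strand, with 13 exons. Some exons are shared with genes on the opposite strand, and the strand setting of the counting was not given in the sources used here. IDH3G shares 267 exonic bases with SSR4, which had 584 to 1360 counts per library, more than the 308 to 569 of IDH3G, so the level of IDH3G is less certain. For IDH1 the overlap is 94 exonic bases with IDH1-AS1, which had at most 20 counts against at least 535 for IDH1. IDH3A shares 2608 exonic bases with ACSBG1, which had at most 26 counts, and 38 with CIB2, which had up to 634. Few counts on ACSBG1 do not show how reads on the shared bases were assigned, so the level of IDH3A is less certain as well. No gene on the other strand overlapped IDH2 or IDH3B, though NOP56 starts 2 bases from IDH3B. The long noncoding RNA genes named after the family, IDH1-AS1, IDH2-DT and IDH3B-DT, had at most 20, 0 and 5 counts in any library.

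The 250 bases before the canonical start site of IDH1, IDH2 and IDH3A are printed because the first pair fell together with carboplatin while IDH3A did not. They were read from GRCh37 at the start sites of GENCODE v44 mapped to that build, on the strand of the gene and 5′ to 3′: chr2:209119796-209120045 for IDH1, chr15:90645701-90645950 for IDH2 and chr15:78441454-78441703 for IDH3A. Capitals mark matches on either strand to the 2 motifs with a hit there, CCAAT, the core of NF-Y sites, and GGGCGG, the core of GC boxes.
IDH1: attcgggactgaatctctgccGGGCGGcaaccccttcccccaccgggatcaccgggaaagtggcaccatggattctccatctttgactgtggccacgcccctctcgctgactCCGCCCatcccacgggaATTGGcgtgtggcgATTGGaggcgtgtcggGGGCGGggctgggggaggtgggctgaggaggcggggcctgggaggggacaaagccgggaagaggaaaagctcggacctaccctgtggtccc
IDH2: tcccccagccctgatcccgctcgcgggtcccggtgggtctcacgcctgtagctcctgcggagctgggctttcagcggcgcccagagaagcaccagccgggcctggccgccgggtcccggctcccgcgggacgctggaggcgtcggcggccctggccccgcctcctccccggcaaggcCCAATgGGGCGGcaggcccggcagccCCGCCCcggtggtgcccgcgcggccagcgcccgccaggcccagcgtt
IDH3A: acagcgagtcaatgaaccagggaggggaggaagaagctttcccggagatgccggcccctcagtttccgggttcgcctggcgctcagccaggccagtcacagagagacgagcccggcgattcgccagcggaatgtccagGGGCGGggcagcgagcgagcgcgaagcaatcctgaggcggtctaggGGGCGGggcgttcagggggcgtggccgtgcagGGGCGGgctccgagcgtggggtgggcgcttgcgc

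IDH1 held 2 matches to CCAAT, both on the reverse strand, and 3 to GGGCGG. IDH2 held 1 CCAAT, separated by 1 base from the GGGCGG after it, with 2 GGGCGG in all, and IDH3A held 3 GGGCGG and no CCAAT. Over 300 bases that also take in 50 after the start, CCAAT was present in 36% and GGGCGG in 61.4% of 19894 protein-coding promoters, so both are common. IDH3G held 1 CCAAT and no GGGCGG, and IDH3B held neither and 1 TTTGAA (11.5% of promoters). The other 5 motifs searched on both strands, TTTCGCGC (0.719% of promoters), TTTGGCGC (0.86%), CACGTG (8.76%), the palindromic NRF1 motif (1.69%) and the classical sterol regulatory element (0.0704%), had no match in the 5 windows, and the searched motifs did not overlap each other in them. These windows differed in base composition, with 79.2% G and C in the 250 bases of IDH2, 66.4% in those of IDH1 and 51.6% in those of IDH3B.

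IDH1 and IDH2 were the members that varied most over the 12 conditions. The highest condition mean of IDH1 was 4.16-fold its lowest, and that of IDH2 3.8-fold, against 2.03-fold for IDH3A, 1.71-fold for IDH3B and 1.59-fold for IDH3G. These 12 include wt and wt carbo, whose values chose IDH1 and IDH2, and over the 10 other conditions the range of IDH1 was 4.05-fold while those of the other members were the same. The 10 still hold wt -SG carbo, with the line and drug of that choice, where IDH1 and IDH2 were lowest. Their range is therefore not independent of the choice. In CPM per kilobase of canonical transcript, a scale that sets genes roughly beside each other, IDH3B had the highest condition means, 67.4 to 115. IDH1, at 15.9 to 66, followed in every condition except wt carbo and wt -SG carbo, where the mean of IDH3G was above it. IDH2 ran from 5.53 to 21.02, IDH3A from 9.07 to 18.4 and IDH3G from 14.7 to 23.4 on the same scale. The reads were counted with an older annotation than the one that gave these lengths. Bases shared with other genes were not taken out, so levels and ratios of different genes on this scale are approximate. Bulk RNA cannot tell a lower level in every cell from fewer cells that express a gene.

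**Figure D1:**
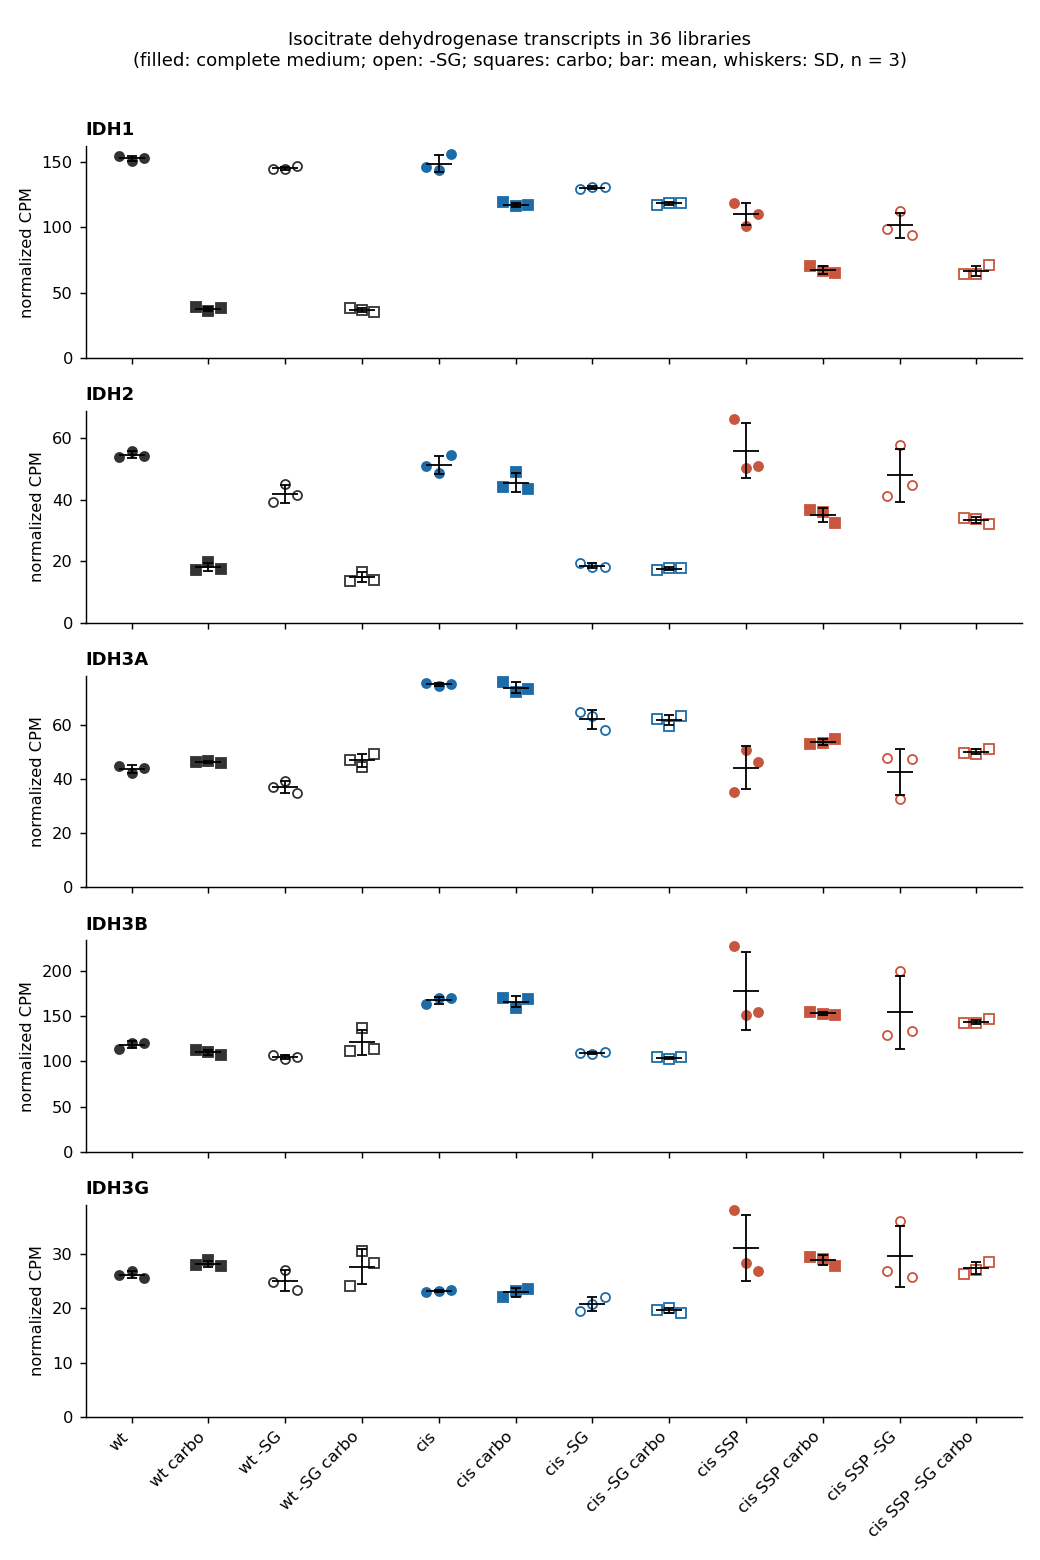
Each point is the TMM-scaled CPM of 1 library (y axis, from 0, 1 panel per gene) in the 12 conditions along the x axis, with the mean and SD of 3 libraries; filled points are complete medium, open points -SG, squares carboplatin. IDH1 is lowest in both carboplatin conditions of wt cells, at 35.4 to 38.8 CPM, and IDH2 is at 19.6 CPM or less in these and in both -SG conditions of cis cells.

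Carboplatin left wt cells with 24.6% of their IDH1 level in complete medium and 25.3% without serine and glycine. IDH1 was at 154, 151 and 153 CPM in the wt libraries and at 38.8, 36.05 and 38.2 CPM with carboplatin, the values by which the gene was chosen. Without serine and glycine, in libraries that played no part in that choice, it was at 145, 145 and 147 CPM untreated and at 38.4, 36.5 and 35.4 CPM with carboplatin. All 3 treated libraries lay far below all untreated ones. IDH1 fell by 1.98 on the log2 scale (SE 0.056, edgeR adjusted p = 5.48e-09), the 145th lowest value among 11474 genes with a mean of at least 50 counts. In this comparison 4 of the 5 members were called, 2 lower and 2 higher, where 68.9% of 14467 genes were called, 34.6% lower and 34.3% higher.

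IDH2, the mitochondrial counterpart, moved in the same direction in these cells. Its libraries read 54.02, 55.9 and 54.2 CPM in wt and 17.2, 19.6 and 17.5 CPM in wt carbo, again the values that chose it. Without serine and glycine, 39.2, 44.95 and 41.5 CPM untreated stood against 13.6, 16.6 and 13.9 CPM with carboplatin, with no overlap. The log2 fold change was -1.50 (SE 0.0903, edgeR adjusted p = 5.07e-07). Leaving out each of the 6 libraries in turn kept IDH1 between -2.02 and -1.96 and IDH2 between -1.60 and -1.46, all called.

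In resistant cells in complete medium the same drug moved these transcripts less than in wt cells. The wt values of that medium chose the genes, so this difference was not tested. IDH1 was at 147, 144 and 156 CPM in cis and at 119, 116 and 117 CPM in cis carbo, which do not overlap, and fell by 0.33 on the log2 scale (SE 0.0338, edgeR adjusted p = 1.93e-08). IDH2 was at 50.9, 48.6 and 54.5 CPM in cis and 44.05, 49.04 and 43.5 CPM in cis carbo, a log2 fold change of -0.17 (SE 0.0532, edgeR adjusted p = 0.0266). The IDH2 libraries overlapped, library 17 reading above library 14, and the call of IDH2 did not hold under DESeq2's Wald test (adjusted p = 0.127) or in one fit over the 36 libraries (adjusted p = 0.59). Nor did it hold without library 13, 15, 16 or 18, at -0.17, -0.12, -0.14 and -0.13. Both members were lower, 2 of 5 where 20.1% of 13458 genes were called and 10.8% were lower.

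Without serine and glycine, cis cells showed still smaller values, though the difference between the media, given below, was called for IDH1 and not for IDH2. IDH1 was at 129, 131 and 131 CPM in cis -SG and 117, 119 and 119 CPM in cis -SG carbo, with no overlap, and fell by 0.13 (SE 0.0319, edgeR adjusted p = 0.00963). It was the 1 member called among 22.5% of 14476 genes, 11.6% lower, was not called without library 20 or 24 (both -0.13), and with library 22 as the only treated one, libraries 23 and 24 left out, it was -0.14. The spread in that last fit comes from the cis -SG libraries alone, so its adjusted p of 0.0237 assumes that the treated library varies like them. IDH2 was at 19.4, 17.98 and 18.1 CPM in cis -SG and at 16.97, 17.8 and 17.8 CPM in cis -SG carbo, -0.07 (SE 0.0681, edgeR adjusted p = 0.503), and at -0.11 without libraries 23 and 24.

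The responses of wt and cis cells without serine and glycine were compared with an interaction term, which uses none of the libraries that chose the genes. The log2 fold change with carboplatin was lower in wt than in cis cells by 1.82 for IDH1 (SE 0.0681, edgeR adjusted p = 2.58e-13) and by 1.41 for IDH2 (SE 0.112, edgeR adjusted p = 6.5e-09). With 1 of the 12 libraries left out, the interaction value of IDH1 stayed between -1.87 and -1.81 and that of IDH2 between -1.52 and -1.36. This test called 4 of the 5 members, IDH1 and IDH2 lower and IDH3A and IDH3B higher, and 55.4% of 15803 genes, 27.6% lower and 27.8% higher. Without library 11 the values were -1.83 and -1.52, and without libraries 23 and 24 they were -1.86 and -1.41. Between the media in cis cells, the carboplatin response of IDH1 differed by 0.20 (SE 0.0478, edgeR adjusted p = 0.00473), the 1 member called among 12.1% of 14797 genes, 5.91% in that direction. That call was lost in one fit over the 36 libraries (0.20, adjusted p = 0.415) and without library 13, 17, 18, 19, 20 or 21, where the difference was 0.15 to 0.17. For IDH2 the difference between the media was 0.1 (SE 0.0894, edgeR adjusted p = 0.527).

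In cis SSP cells, which descend from the resistant line, the log2 fold changes of IDH1 and IDH2 lay between those of wt and cis cells. Whether they differed from those of wt cells was not tested. The interaction with cis cells, given below, called neither gene by edgeR with all libraries in. IDH1 was at 119, 102 and 110.3 CPM in cis SSP and 70.6, 66.4 and 65.4 CPM in cis SSP carbo, with no overlap. The log2 fold change was -0.67 (SE 0.097, edgeR adjusted p = 0.0248), and IDH1 was the 1 member called among 2.72% of 13885 genes, 0.749% lower. IDH2 was at 66.2, 50.3 and 51.1 CPM in cis SSP and 36.6, 35.9 and 32.4 CPM in cis SSP carbo, -0.64 (SE 0.131, edgeR adjusted p = 0.0681). Library 25, which stood apart, held the highest value of both genes in cis SSP. Without it, IDH1 was at -0.63 (adjusted p = 6.03e-12) and IDH2 at -0.51 (adjusted p = 2.18e-08), IDH3A was called higher as well, and 41.2% of 14170 genes were called. IDH1 lost its call without library 26, 27, 28, 29 or 30, at -0.73, -0.67, -0.71, -0.66 and -0.65.

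Carboplatin in cis SSP cells without serine and glycine gave a like picture. IDH1 was at 98.5, 112 and 94.05 CPM untreated and 64.7, 64.1 and 71.3 CPM treated. IDH2 was at 41.3, 57.7 and 44.7 CPM untreated and 34.1, 33.8 and 32.2 CPM treated. Library 32, which stood apart, held the highest untreated value of both genes. Neither gene overlapped between the groups, nor did IDH3A, and the share of all genes that did not overlap is not given here. The log2 fold changes were -0.59 for IDH1 (SE 0.107, edgeR adjusted p = 0.0650) and -0.50 for IDH2 (SE 0.146, edgeR adjusted p = 0.179). By edgeR none of the 5 members was called, where 1.47% of 13541 genes were, while 2 had an unadjusted p-value under 0.05 and DESeq2 called 1. Without library 32, IDH1 was at -0.51 (adjusted p = 2.72e-08) and IDH2 at -0.34 (adjusted p = 0.000115), IDH3B was called higher at 0.16, and 41.1% of 13833 genes were called.

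The interaction between cis SSP and cis cells in complete medium called none of the members by edgeR and 0.506% of 14428 genes. There, 2 members had an unadjusted p-value under 0.05 and DESeq2 called 1. The carboplatin response was lower in cis SSP cells by 0.34 for IDH1 (SE 0.0948, edgeR adjusted p = 0.201) and by 0.47 for IDH2 (SE 0.144, edgeR adjusted p = 0.266). Without library 25 the differences were -0.29 (adjusted p = 0.000205) and -0.34 (adjusted p = 0.00226), IDH3A was called higher (0.18, adjusted p = 0.0404) and 14.3% of 14716 genes were called, so this result turned on 1 library.

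**Figure D2:**
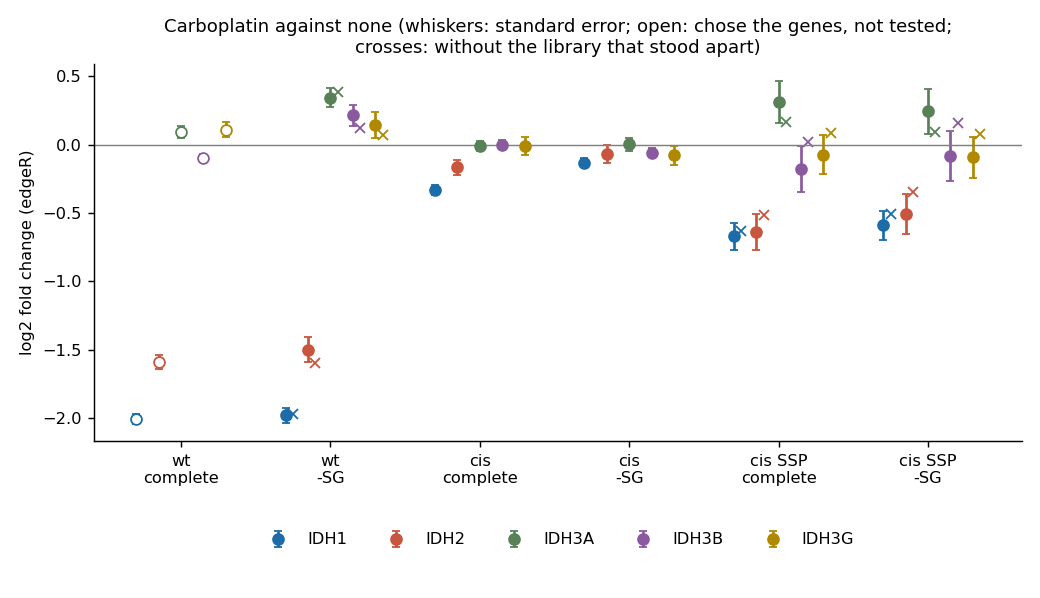
Points are log2 fold changes with carboplatin (y axis) and whiskers their standard errors for the 5 genes in each line and medium (x axis); open points are the contrast that chose the genes and crosses leave out library 11, 25 or 32. IDH1 reads -2.01 and -1.98 in wt, -0.33 and -0.13 in cis, and -0.67 and -0.59 in cis SSP cells.

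Withholding serine and glycine, with no drug, lowered IDH2 more than any other member in both cis and wt cells, and its log2 fold change was the lower in cis cells. In cis cells IDH2 was at 50.9, 48.6 and 54.5 CPM in complete medium and at 19.4, 17.98 and 18.1 CPM without serine and glycine, 36% of the level before. The groups lay far apart, and the log2 fold change of -1.41 (SE 0.0579, edgeR adjusted p = 5.47e-26) was the 164th lowest among 11430 expressed genes. Each library left out in turn kept it between -1.46 and -1.37. IDH1 changed much less, at -0.13 (SE 0.0335, edgeR adjusted p = 0.000573). In all, 4 of the 5 members were lower, where 75% of 14122 genes were called and 37.4% were lower.

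In wt cells, described only, IDH2 went from 54.02, 55.9 and 54.2 CPM to 39.2, 44.95 and 41.5 CPM on deprivation, a log2 fold change of -0.38 (SE 0.0482), and IDH1 was at -0.07 (SE 0.029). In cis SSP cells IDH2 overlapped between the media, at 66.2, 50.3 and 51.1 CPM with and 41.3, 57.7 and 44.7 CPM without serine and glycine. Its log2 fold change was -0.21 (SE 0.17, edgeR adjusted p = 1). None of the 5 members was called there by edgeR, at an unadjusted p-value under 0.05 or by DESeq2, and 0.0218% of 13736 genes were called. The highest IDH2 value of either medium belonged to a library that stood apart. With libraries 25 and 32 both left out, IDH2 was at -0.23 (SE 0.0565, edgeR adjusted p = 0.00219), IDH1 at -0.13 and IDH3B at -0.21 were also called, and 35.9% of 13925 genes were.

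The deprivation responses of cis SSP and cis cells differed in IDH2. The interaction value was 1.21 (SE 0.199, edgeR adjusted p = 0.00243), meaning a smaller fall in cis SSP cells, and it was 1.18 without libraries 25 and 32. IDH2 was the 1 member called, among 17.1% of 14806 genes (6.86% in that direction), and stayed called in each of the 12 fits without 1 library, at 1.06 to 1.35. Without libraries 25 and 32, IDH3A (0.20) and IDH3B (0.34) were called as well and 55.4% of 15057 genes were. IDH1 was at 0.03 (SE 0.128, edgeR adjusted p = 0.897).

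**Figure D3:**
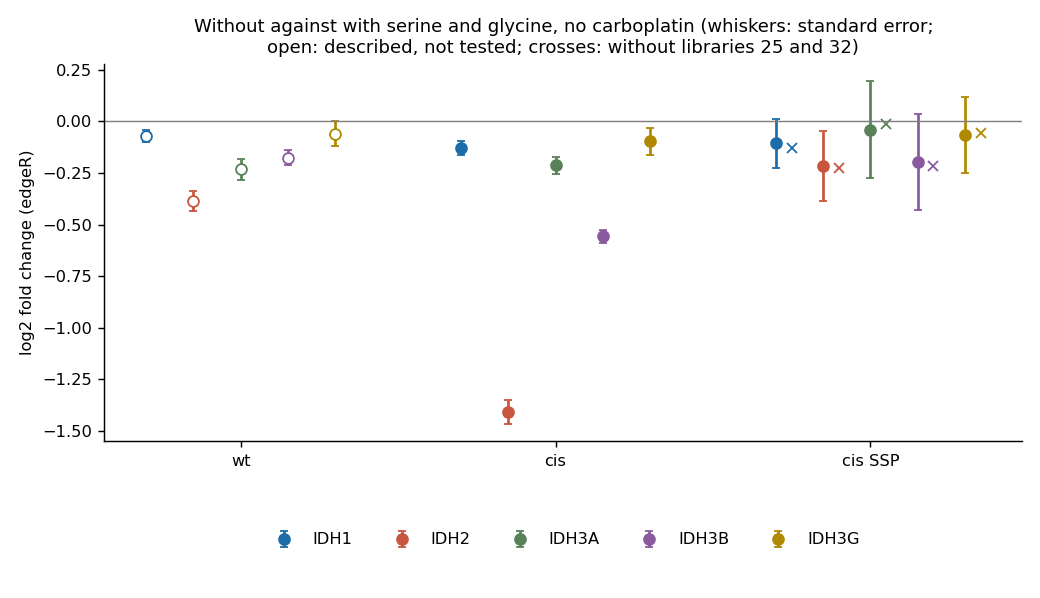
Points are log2 fold changes without against with serine and glycine, no carboplatin (y axis), and whiskers their standard errors for the 5 genes in each line (x axis); wt is open since it shares libraries with the choice of genes, and crosses leave out libraries 25 and 32. IDH2 reads -1.41 in cis against -0.38 in wt and -0.21 in cis SSP cells.

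Between lines kept without serine and glycine, IDH2 was lower in cis than in wt cells, 18.5 ± 0.78 against 41.9 ± 2.9 CPM (SD, n = 3), a log2 fold change of -1.13 (SE 0.0611, edgeR adjusted p = 5.03e-13). All 5 members were called in this comparison, 3 lower and 2 higher in cis, where 81.1% of 14939 genes were, 40.3% lower and 40.8% higher. IDH1 differed less between the lines, 131 ± 0.984 against 146 ± 1.12 CPM, at -0.11 (SE 0.0308, edgeR adjusted p = 0.00264). In cis SSP -SG cells IDH2 stood at 47.9 ± 8.66 CPM, 2.59-fold the level of cis -SG cells, with a log2 fold change of 1.30 (SE 0.137, edgeR adjusted p = 0.000819), and 1.17 without library 32 (adjusted p = 5.65e-22). Here 4 of the 5 members were called, 2 higher and 2 lower in cis SSP, among 44.8% of 14342 genes, 21.6% higher and 23.2% lower, and without library 32 all 5 were, among 75.5%. In complete medium IDH2 did not separate the lines, at 54.7 CPM in wt, 51.3 in cis and 55.9 in cis SSP, where the libraries of cis SSP overlapped those of the other two.

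IDH1 was lower in cis SSP than in cis cells in both media. In complete medium its mean was 110.1 ± 8.54 against 149 ± 6.3 CPM (SD, n = 3), a log2 fold change of -0.46 (SE 0.0963, edgeR adjusted p = 0.0147), and without serine and glycine it was 102 ± 9.63 against 131 ± 0.984 CPM, -0.43 (SE 0.096, edgeR adjusted p = 0.0125). The libraries of the lines did not overlap in either medium. In complete medium 2 of the 5 members were called, both lower in cis SSP cells, where 29.1% of 13714 genes were called and 13.3% were lower. The call of IDH1 was lost without library 13, 14, 15 or 26 in complete medium (-0.41 to -0.47), without library 19, 20, 21 or 33 in the other (-0.34 to -0.43), and with no filter on low counts in both. Without library 25 it was -0.48 (adjusted p = 4.07e-12), and without library 32 -0.49 (adjusted p = 1.17e-16), where 65.4% and 75.5% of genes were called.

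The ratio of IDH1 to IDH2, both in CPM per kilobase, showed where they parted. It was 3.21 ± 0.098 (SD, n = 3) in wt and 3.33 ± 0.064 in cis cells, rose to 8.11 ± 0.39 in cis -SG and 7.76 ± 0.15 in cis -SG carbo cells, and lay between 2.22 and 2.46 in the 4 conditions of cis SSP cells. With carboplatin in wt cells it was 2.4 ± 0.25, a value from the libraries that chose the genes. In deprived wt cells, which did not, it was 4 ± 0.28 untreated and 2.89 ± 0.36 with carboplatin, and the treated libraries, at 2.52 to 3.24, lay below the untreated ones, at 3.69 to 4.25. The 6 deprived cis libraries, at 7.66 to 8.37, were above the 30 others, which reached 4.25.

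**Figure D4:**
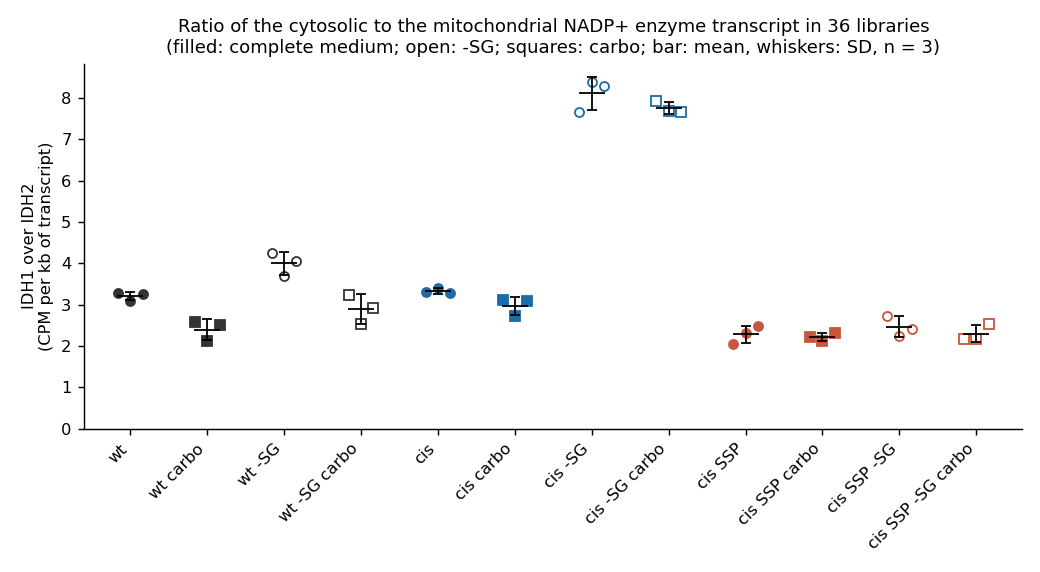
Each point is the ratio of IDH1 to IDH2 in 1 library, both in CPM per kilobase of transcript (y axis, from 0), in the 12 conditions (x axis), with the mean and SD of 3 libraries. The cis -SG and cis -SG carbo libraries stand at 7.66 to 8.37, and every other library is at 4.25 or less.

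IDH3A, the catalytic subunit, was highest in the resistant line. It was at 75.3, 74.5 and 75.2 CPM in cis against 44.6, 42.1 and 44.2 CPM in wt cells, a described log2 fold change of 0.76 (SE 0.0417). Without serine and glycine the levels were 64.8, 63.2 and 58.01 CPM in cis -SG and 37.02, 39.3 and 34.8 CPM in wt -SG, and the tested log2 fold change was 0.79 (SE 0.0522, edgeR adjusted p = 1.95e-11). No library of one line reached those of the other. In cis SSP cells IDH3A was at 35.3, 50.6 and 46.4 CPM, with library 25 the lowest, a log2 fold change against cis of -0.78 (SE 0.162, edgeR adjusted p = 0.0149), and -0.62 (adjusted p = 4.05e-13) without that library. The call was lost without library 13, 14 or 15, at -0.77, -0.78 and -0.77. In deprived cells, the log2 fold change of cis SSP against cis was -0.60 (SE 0.177, edgeR adjusted p = 0.0336) and -0.43 without library 32 (adjusted p = 1.09e-10), and without library 19, 20 or 21, at -0.56, -0.59 and -0.65, it was not called.

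IDH3B, the beta subunit, was also higher in cis than in wt cells in complete medium, 163, 169 and 169.5 against 114, 120.1 and 121 CPM, described as 0.48 on the log2 scale (SE 0.0303). Deprivation took most of that away. It brought IDH3B in cis cells to 109, 108 and 110.3 CPM, and IDH3B fell by 0.56 (SE 0.0326, edgeR adjusted p = 3.34e-20) while IDH3A fell by 0.21 (SE 0.0425, edgeR adjusted p = 1.85e-05). Between cis -SG and wt -SG cells IDH3B then differed by 0.11 (SE 0.0338, edgeR adjusted p = 0.00736), a call lost with DESeq2 (0.10), in one fit over all libraries (0.06) and without library 8 (0.08). In cis SSP cells it was at 227, 151 and 155 CPM in complete medium and 129, 200.1 and 133 CPM without serine and glycine. The high value of each medium was the library that stood apart, and without library 25 the log2 fold change against cis turned from 0.06 (adjusted p = 0.793) to -0.12 (adjusted p = 0.00367). Without library 32, IDH3B was higher in cis SSP -SG than in cis -SG cells by 0.21 (adjusted p = 4.83e-07), and with it by 0.43 (adjusted p = 0.0896).

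With carboplatin, subunits of the NAD+-dependent enzyme were called higher in deprived wt cells, and elsewhere with library 25 or 32 left out. In deprived wt cells IDH3A went from 37.02, 39.3 and 34.8 CPM to 47.1, 44.4 and 49.1 CPM, higher by 0.34 (SE 0.0706, edgeR adjusted p = 0.00179), or by 0.385 without library 11 (adjusted p = 2.17e-05). IDH3B went from 107, 102 and 105 CPM to 112, 137 and 114 CPM, with library 11 the highest, at 0.21 (SE 0.0767, edgeR adjusted p = 0.0321), and at 0.12 without library 11 (adjusted p = 0.0135). IDH3B was not called without library 7, 8 or 9 (0.22, 0.19 and 0.21), with total counts in place of TMM (0.16) or in one fit over the 36 libraries (0.21). In cis cells the 3 subunits lay between -0.01 and 0.00 in complete medium and between -0.08 and 0.00 without serine and glycine, and none was called. In cis SSP cells IDH3A was at 0.31 in complete medium (SE 0.155, edgeR adjusted p = 0.375) and 0.24 without serine and glycine (SE 0.164, edgeR adjusted p = 0.525). Its libraries did not overlap between treated and untreated cells in either medium, and the share of all genes that did not overlap is not given here. Without library 25 the first value was 0.17 (adjusted p = 0.00851), and without library 32 the second was 0.095 (adjusted p = 0.138). Whether wt and cis SSP cells differed in this response was not tested. The interaction of wt and cis cells without serine and glycine was 0.36 for IDH3A (SE 0.0912, edgeR adjusted p = 0.00233) and 0.30 for IDH3B (SE 0.0889, edgeR adjusted p = 0.00849), IDH3B standing at 0.18 without library 11, 0.19 with total counts (adjusted p = 0.0664), 0.28 in one fit over the 36 libraries (adjusted p = 0.198) and 0.24 without libraries 23 and 24 (adjusted p = 0.112).

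IDH3G, the regulatory subunit, had the narrowest range, from 19.1 to 38.2 CPM over all libraries, and its highest values, 38.2 and 36.1 CPM, were those of libraries 25 and 32. It was lower in cis -SG than in wt -SG cells, 20.8 ± 1.29 against 25.1 ± 1.92 CPM (SD, n = 3), at -0.23 (SE 0.0685, edgeR adjusted p = 0.00485). Against cis -SG it was higher in cis SSP -SG cells by 0.43 (SE 0.144, edgeR adjusted p = 0.0495), or 0.29 without library 32 (adjusted p = 0.00022). In complete medium IDH3G was at 0.40 in cis SSP against cis cells (SE 0.136, edgeR adjusted p = 0.0726), and at 0.26 without library 25 (adjusted p = 0.00103). The call in deprived cells was lost without library 19, 20, 21 or 31 (0.41 to 0.50), with total counts (0.36), with no filter (0.46) and with at least 10 counts in every library (0.42). SSR4, which shares exons with IDH3G, was at -0.33 (adjusted p = 1.91e-05) and 0.78 (adjusted p = 0.0442) in these comparisons by edgeR, and its part in the values of IDH3G was not tested. Per kilobase, IDH3A was near IDH3G in cis cells (ratio 1.06 ± 0.012) and at 0.544 ± 0.03 of it in wt cells, while the mean ratio of IDH3B to IDH3A was between 4.46 and 11.3 over the 12 conditions, the highest in cis SSP cells, with library 25 at 17.

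Ordered by mean level, IDH1 ran from wt (153 CPM) through cis, wt -SG, cis -SG, cis -SG carbo, cis carbo, cis SSP, cis SSP -SG, cis SSP carbo and cis SSP -SG carbo to wt carbo and wt -SG carbo (36.8 CPM). Of the 11 neighbouring pairs in that order, 7 had overlapping libraries, and the steps without overlap came after wt -SG, cis -SG, cis SSP -SG and cis SSP -SG carbo. IDH2 ran from cis SSP (55.9 CPM), wt, cis, cis SSP -SG, cis carbo and wt -SG to cis SSP carbo, cis SSP -SG carbo, cis -SG, wt carbo, cis -SG carbo and wt -SG carbo (14.7 CPM). Its steps without overlap followed wt -SG, cis SSP -SG carbo and cis -SG carbo, and 8 of its 11 pairs overlapped. For IDH3A the 4 cis conditions came first (74.98 to 61.7 CPM), then both carboplatin conditions of cis SSP, and wt -SG was last (37.02 CPM), with 7 overlapping pairs. IDH3B ran from cis SSP (178 CPM) to cis -SG carbo (104 CPM), with 7 overlapping pairs, and IDH3G from cis SSP (31.2 CPM) to cis -SG carbo (19.6 CPM), with all 11 pairs overlapping. With total counts in place of TMM, IDH1 kept its rank in 12 of 12 conditions, IDH2, IDH3A and IDH3G in 10, and IDH3B in 4.

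The other enzymes of the TCA cycle, 14 genes, showed the direction of IDH2 on deprivation of cis cells. All 14 were lower, where 37.4% of all genes were, with a median log2 fold change of -0.43 against 0.01 over all genes tested, and CS, citrate synthase (-0.96), and SDHA, of succinate dehydrogenase (-0.74), were lowest. IDH2, at -1.41, lay below each of them. In cis SSP -SG against cis -SG cells 12 of the 14 were higher, led by FH, fumarase (1.35), where 21.6% of all genes were, and without library 32 all 14 were, where 37% were. With carboplatin in deprived wt cells 7 were lower and 1 higher, where 34.6% and 34.3% of all genes were, with a median of -0.14, and SUCLG2, of succinyl-CoA ligase, was lowest at -1.21. None of the 14 fell as far as IDH1, which was chosen for its fall with the same drug in this line in complete medium. In cis cells 5 were lower and 1 higher in complete medium, where 10.8% and 9.27% of all genes were, and 1 each without serine and glycine, where 11.6% and 10.9% were. None was called with carboplatin in cis SSP cells with all libraries in, while without library 25 or 32, in the medium of each, 4 were lower and 1 higher, where 19.2% and 21.9%, and 19.9% and 21.1%, of all genes were.

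Of 10 other NADPH sources, 7 or 8 passed the filter. In deprived wt cells with carboplatin 5 were lower and 2 higher, where 34.6% and 34.3% of all genes were. The median of the list was -0.86 against -0.01 over all genes. Lowest were ME1, cytosolic malic enzyme, at -1.43, NNT, the mitochondrial transhydrogenase, at -1.39, and ALDH1L2, a mitochondrial folate enzyme, at -1.35. In cis cells carboplatin lowered 4 and raised 1 of 7, with NNT at -0.33, where it lowered 10.8% and raised 9.27% of all genes. Deprivation of cis cells lowered 4 and raised 3 of 7, where it lowered 37.4% and raised 37.6% of all genes. Among those that fell were PGD (-1.12) and NNT (-0.48), while ALDH1L2 (1.15), MTHFD2L (0.70) and MTHFD2 (0.23) rose.

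Among 13 genes that handle citrate and 2-oxoglutarate, 9 were lower and 3 higher on deprivation of cis cells, where 37.4% and 37.6% of all genes were. SLC25A11, the mitochondrial carrier of 2-oxoglutarate, fell by 1.01, ACLY, which splits citrate in the cytosol, by 0.71 and SLC25A1, the citrate carrier, by 0.63. With carboplatin in deprived wt cells 6 were lower and 1 higher, again beside 34.6% and 34.3% of all genes, and the serine synthesis enzyme PSAT1, which releases 2-oxoglutarate, and the transaminase GPT2 were lowest, at -1.34 and -1.08. PSAT1 and GPT2 were also the 2 genes of this list called in cis SSP -SG cells with carboplatin (-0.72 and -0.71), where 0.295% of all genes were lower. Without library 32 the list had 5 lower and 1 higher, where 41.1% of 13833 genes were called either way. Of 12 sterol-regulated genes, 11 were matched. Deprivation of cis cells lowered 10, where 37.4% of all genes were lower, with a median of -0.89 and INSIG1, the brake on the sterol sensor, at -2.33, and the interaction with cis SSP cells was higher for 7 of 11, as it was for IDH2, where 6.86% of all genes were. Without libraries 25 and 32 it was higher for 9 of 11, where 28.8% of all genes were. In deprived wt cells with carboplatin 5 of them were lower and 3 higher, where 34.6% and 34.3% of all genes were, and without library 11 the counts were 5 and 5, where 36.7% and 36.6% were.

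By Pearson's r of mean log2 CPM over the 12 conditions, among 11615 genes with a mean of at least 50 counts, the genes most like IDH1 were DDHD2 (0.975), ICE2 (0.967), STK39 (0.964), TADA1 (0.963) and STRBP (0.958). Those most like IDH2 were SRSF4 (0.983), LRRC20 (0.983), SAAL1 (0.979), NUP43 (0.977) and MTMR4 (0.976). For the mean of the 3 IDH3 genes they were FASTKD3 (0.978), PWP1 (0.976), MRTO4 (0.974), PPIL2 (0.97) and GPRC5B (0.967). The conditions share lines and libraries, so these values describe likeness only. Without wt and wt carbo, 2 of the 5 stayed among the first 5 for IDH1, 2 for IDH2 and 3 for the IDH3 mean, and over the 36 libraries 3 did for each. Between members r was 0.6 for IDH1 and IDH2, 0.66 for IDH2 and IDH3B and -0.65 for IDH3A and IDH3G over the same 12 conditions.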

How the data were processed

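RNA-seq libraries of wt, cis and cis SSP cells (36, with 3 in each of 12 conditions) took their groups from the labels. Per the labels and the study's methods, the authors aligned single-end reads with STAR to GRCh37.p13, counted with HTSeq and GENCODE v19, and deposited raw counts per gene. Rows that name no gene (3, with 4.21% to 17.9% of counts on no feature) stayed out of library sizes and tests. GENCODE v44, in its version for GRCh37, gave symbols (55538 of 57820 identifiers), positions, lengths and start sites. The mean chi-square per gene of library pairs of a condition was 1.18 to 111, and none was treated as a duplicate.

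Each comparison was fitted on its own libraries with edgeR 4.0.16 in R 4.3.3 (TMM, filterByExpr, glmQLFit with robust estimation, glmQLFTest), and p-values were adjusted by Benjamini and Hochberg's method over all genes tested, with calls under 0.05. CPM used TMM factors of one set over the 36 libraries, from genes that passed filterByExpr. The standard error is the absolute log2 fold change divided by the square root of F. Alternatives were DESeq2 1.42.0 (Wald test), edgeR with size factors of DESeq2 or with total counts, no filter, a minimum of 10 counts per library, a single fit of the 36 libraries, each library left out in turn, libraries 25 and 32 left out together, and libraries 23 and 24 left out together. The tests were tried on simulated counts. Likeness used log2 of mean CPM plus a pseudocount of 1. The members, gene lists and tests were chosen with earlier results of these data known. Named genes were the 5 members, their neighbours, up to 3 called genes per list, direction and comparison with the largest change, the 5 genes most alike, and PHGDH, CDKN1A and MDM2. A gene that this rule takes from the lists is not reported here.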

Additional observations from a re-analysis of the deposited data

Results flagged for a closer look

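The carboplatin response without serine and glycine differed between wt and cis cells by the test of the difference itself, on the log2 scale, by -1.82 for IDH1, -1.41 for IDH2, 0.365 for IDH3A and 0.297 for IDH3B, where 55.4% of all genes were called. The carboplatin response of IDH1 in cis cells differed between the media by 0.205, where 12.1% of all genes were called, 5.91% in that direction. That call held in 6 of 12 fits without 1 library and was lost in one fit over the 36 libraries. The deprivation response of IDH2 differed between cis SSP and cis cells by 1.21, where 17.1% of all genes were called, 6.86% in that direction. What lies behind these differences was not tested.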

How the results depend on the processing

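Of 29 member values called in edgeR, 17 stayed called in the same direction under every alternative and every left-out library, 18 over left-out libraries and 20 over the other alternatives, and none of the 29 turned direction. The number of members called became 1 with DESeq2 or in one fit over the 36 libraries for cis carbo against cis, and 2 with total counts, DESeq2 or one fit for cis SSP carbo against cis SSP. It was 0 in one fit for cis -SG carbo against cis -SG and for the carboplatin response of cis cells between the media. For cis SSP -SG carbo against cis SSP -SG it was 1 with DESeq2 and 2 in one fit, and for the carboplatin response of cis SSP against cis cells 1 with either. It was 3 with total counts or one fit for wt -SG carbo against wt -SG, for the interaction of wt and cis cells and for cis SSP against cis, and 4 with DESeq2 or one fit for cis -SG against wt -SG. For cis SSP -SG against cis -SG it was 3 with total counts or at least 10 counts and 5 in one fit. With no filter it was 1 for cis SSP against cis and 2 for cis SSP -SG against cis -SG. Without libraries 25 and 32 it was 3 for deprivation of cis SSP cells and 3 for the interaction of that response. Without libraries 23 and 24 it was 3 for the interaction of wt and cis cells. With 1 library left out it ranged from 1 to 2 for carboplatin in cis, 0 to 3 in cis SSP, 0 to 1 in cis -SG and 0 to 3 in cis SSP -SG cells, 0 to 4 for cis SSP against cis, 1 to 5 for these lines without serine and glycine, 3 to 5 for carboplatin in wt -SG cells, 4 to 5 for the interaction of wt and cis cells and for cis -SG against wt -SG, 0 to 1 for the response of cis cells between the media and 0 to 3 for that of cis SSP against cis cells.

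The values that turned direction were of members not called in edgeR, and IDH3B was called in the new direction without library 32 with carboplatin in cis SSP -SG cells (0.157, adjusted p = 0.000952) and without library 25 between cis SSP and cis cells (-0.116, adjusted p = 0.00367). With carboplatin in cis cells, IDH3B was 0.000414 with DESeq2's size factors, 0.00159 with at least 10 counts and 0.000314 with DESeq2, and -0.0187 to 0.0231 with 1 library left out, while IDH3G ranged from -0.0278 to 0.0247. IDH3A in cis -SG cells was -0.02 with no filter and -0.00718 in one fit, and -0.0484 to 0.0289 with 1 library left out. The deprivation interaction was -0.0736 for IDH1 and -0.0645 for IDH3G with total counts, -0.0306 and -0.0232 with at least 10 counts, and -0.0392 to 0.0913 and -0.119 to 0.211 with 1 library left out. Leaving out 1 library also turned, with carboplatin in cis SSP cells, IDH3B (-0.281 to 0.0215) and IDH3G (-0.169 to 0.0842), and in cis SSP -SG cells IDH3B (-0.195 to 0.157) and IDH3G (-0.183 to 0.0782). It turned IDH3A (-0.192 to 0.136) and IDH3G (-0.205 to 0.0796) on deprivation of cis SSP cells, and IDH2 (-0.00401 to 0.155) and IDH3B (-0.116 to 0.147) between cis SSP and cis cells. In the interactions it turned IDH3A between the media in cis cells (-0.0711 to 0.0396) and IDH3B (-0.266 to 0.0276) and IDH3G (-0.147 to 0.0994) between cis SSP and cis cells.

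The cause of these changes was not tested. No paired analysis was possible because the labels give no replicate numbers within a condition. With 3 technical libraries per condition, variation between cultures is not covered, and 194 counts, the lowest of any member, set the counting error of IDH2.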
